A study of Mus musculus with 36 samples.

Results

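The glucocorticoid response genes described here are 10 genes chosen by name. They are *Nr3c1*, which encodes the glucocorticoid receptor, *Hsd11b1*, which encodes the enzyme that makes active glucocorticoid from its inactive form, and *Fkbp5*, *Tsc22d3*, *Per1*, *Zbtb16*, *Klf9*, *Sgk1*, *Mt1* and *Mt2*, which are known as genes that glucocorticoids raise. Gene identifiers were matched to symbols with the GENCODE M21 annotation of the mouse genome, and all 10 were found among the 55536 genes counted. The rule names genes and uses no measured value, although earlier results of these libraries were known when it was written, and all 10 were among the 16723 genes with enough counts to be tested.

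The counts came from RNA sequencing of 36 libraries of brown pre-adipocytes and of the adipocytes formed from them in culture. Every library carried a CRISPR/Cas9 knockout of *Rxra*, the gene of retinoid X receptor alpha, in 1 of 2 monoclonal lines, clone 48 or clone 66. On that background a retrovirus supplied either the wild-type receptor (WT) or the S22A receptor, in which alanine replaces the serine that insulin signalling phosphorylates. Cells were collected at day 0, day 2 and day 6 of differentiation, and 3 libraries were made for every combination of clone, genotype and day, which gives 12 libraries a day and 6 of each genotype a day. No parental line without the knockout and no culture that stayed without the induction cocktail was analysed here.

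Day 0 is confluence, reached in medium with insulin and triiodothyronine. For the following 2 days the medium also held dexamethasone, a synthetic glucocorticoid, together with isobutylmethylxanthine, a phosphodiesterase inhibitor that raises cyclic AMP, and indomethacin, a cyclooxygenase inhibitor. After that the cells were kept in insulin and triiodothyronine alone until day 6. These conditions are those of the published protocol. Day 2 is thus the end of the dexamethasone period and day 6 falls 4 days after its withdrawal. The effect of dexamethasone cannot be told apart from those of the other agents given with it, of time or of differentiation, because no library had one without the others.

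Glucocorticoids cross the cell membrane and bind their receptor, which waits in the cytosol with heat shock proteins and co-chaperones. The bound receptor enters the nucleus, binds DNA as a dimer at glucocorticoid response elements and raises genes such as *Fkbp5*, *Tsc22d3* and *Per1*, while it lowers many inflammatory genes through other transcription factors. In cultures of pre-adipocytes, dexamethasone is a standard component of induction cocktails, and mature fat cells express *Hsd11b1* and so can make their own active glucocorticoid.

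Total counts lay between 11351078 and 24349263 per library, with a median of 18338726. Genes of ribosomal RNA took 0.0601% to 8.0% of the counts, and 6 libraries exceeded 3%, 1 at day 2 and 5 at day 6. That of day 2 was WT of clone 66, replicate 3. Those of day 6 were WT of clone 48, replicate 3, and replicates 2 and 3 of both genotypes of clone 66. *Rxra*, which was knocked out by frameshift mutations and then supplied again, had 92.6 to 712 CPM (a gene's read pairs scaled to one common library total with TMM factors, here and below). A count of read pairs on the gene does not tell its WT from its S22A form, nor either from any transcript of the mutated gene. The summed level of 6 adipocyte markers (*Fabp4*, *Adipoq*, *Plin1*, *Pparg*, *Ucp1* and *Cidea*) was 78.7 to 169 CPM at day 0, 2174 to 4388 CPM at day 2 and 4977 to 8912 CPM at day 6. The brown fat genes *Ucp1*, *Cidea* and *Prdm16* stayed near 0, with means of 0.186, 0.678 and 0.285 CPM at day 6. Summed markers of endothelium reached at most 0.995 CPM, of skeletal muscle 0.340 CPM and of macrophages 11.2 CPM, with *Myod1* at 0 in every library and *Ptprc* at 0 at days 2 and 6.

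Between day 0 and day 2 most of the glucocorticoid response genes rose. *Fkbp5* rose 17.9-fold, *Tsc22d3* 9.12-fold, *Mt2* 4.98-fold, *Klf9* 3.31-fold and *Per1* 2.74-fold in mean CPM over the 12 libraries of each day, and *Hsd11b1* and *Zbtb16* rose from levels near 0. *Nr3c1*, the receptor itself, had nearly the same mean on both days. From day 2 to day 6 the genes parted, since *Fkbp5* was back within its day 0 range, *Sgk1* fell below its own, *Klf9* stayed within its day 2 range and *Hsd11b1* went on rising. In bulk RNA such a change may come from fewer or more cells of a type or from less or more RNA per cell, which cannot be told apart.

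Of the 10 genes, 9 were higher at day 2 than at day 0 at an adjusted p-value under 0.05 and 1, *Nr3c1*, did not pass, where 35.8% of all genes tested were higher and 37.5% were lower. The median log2 fold change of the 10 was 2.00, against −0.02 over all genes tested. Between day 2 and day 6, 3 of the 10 were higher and 5 were lower, where 31.9% of all genes were higher and 30.1% lower, and the medians were −0.45 and 0.01. Against day 0, 7 of the 10 were higher and 1 was lower at day 6, where 32.9% of all genes were higher and 35.4% lower. Without 7 libraries (these 6 and the one of lowest total, S22A of clone 48 at day 0, replicate 1), 9, 7 and 7 of the 10 passed in the same 3 comparisons.

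The spread between libraries was smaller than the change for most of these genes. For 7 of the 10 every one of the 12 libraries at day 2 lay above every one of the 12 at day 0, as it did for 13.6% of all genes tested, with 14.2% separated in the other direction. *Fkbp5*, *Tsc22d3* and *Sgk1* were separated downwards between day 2 and day 6, as were 7.56% of all genes, and *Hsd11b1* was separated upwards, as were 9.56%. These counts describe genes that were listed because glucocorticoids act on them.

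**Figure D1:**
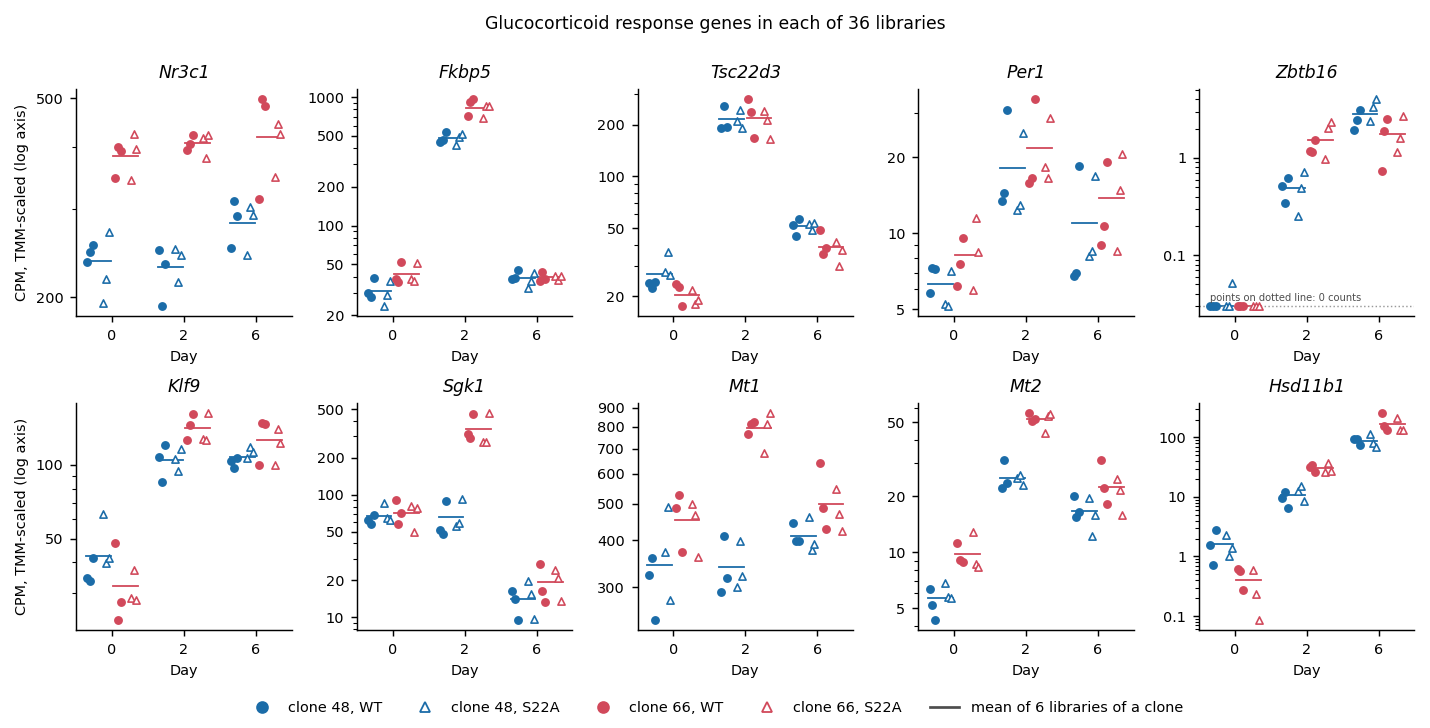
CPM after TMM scaling (log axis) of the 10 glucocorticoid response genes in each of the 36 libraries at day 0, 2 and 6, by clone (colour) and genotype (symbol), with the mean of the 6 libraries of a clone as a line. *Fkbp5* stands between 420 and 958 CPM at day 2 and between 23.7 and 51.7 CPM at both other days. *Hsd11b1* rises at each step, and the mean of *Sgk1* rises only in clone 66.

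The receptor gene *Nr3c1* (chr18:39410545-39519421, GRCm38, minus strand) was expressed at every day. Its lowest, median and highest values were 195, 307 and 423 CPM at day 0, 192, 315 and 422 CPM at day 2 and 243, 313 and 497 CPM at day 6. The ranges of the 3 days overlapped. From day 0 to day 2 the log2 fold change was 0.02 ± 0.07 (SE, adjusted p = 0.772). Any change within its 95% interval, −0.12 to 0.17, remains possible. From day 2 to day 6 the log2 fold change was 0.17 ± 0.07 (adjusted p = 0.0487). Leaving out 1 of 16 single libraries, of either clone, ended that call, with log2 fold changes of 0.13 to 0.20 over all 36 such fits. Without the 7 libraries named above it was 0.08 (adjusted p = 0.429). Scaling by library size alone gave a fall of *Nr3c1* from day 0 to day 2 (log2 fold change −0.23, adjusted p = 0.00476), under which the median of all genes also moved by −0.26.

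What did separate the libraries of *Nr3c1* was the clone. At day 0 its 6 libraries of clone 48 had 195, 241 and 270 CPM (lowest, median and highest) and those of clone 66 had 344, 394 and 423 CPM. The clones did not overlap on any of the 3 days. Clone 66 was higher by 0.70 ± 0.11 on the log2 scale at day 0, by 0.82 ± 0.11 at day 2 and by 0.57 ± 0.11 at day 6 (adjusted p = 7.61e-06, 5.13e-07 and 0.000130). Without the 7 libraries the difference at day 6 was smaller, at 0.26. That fit kept only replicate 1 of each genotype of clone 66 at day 6. All libraries of clone 48 were in pool 1 and all of clone 66 in pool 2, so clone and library pool cannot be told apart here or in any other comparison of the clones.

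*Hsd11b1* (chr1:193221634-193264075, minus strand) was the only one of the 10 genes that rose without overlap of the libraries at both steps. Its product, 11-beta-hydroxysteroid dehydrogenase type 1, sits in the endoplasmic reticulum and regenerates active glucocorticoid. Lowest, median and highest levels were 0.0863, 0.669 and 2.75 CPM at day 0 (2 to 54 read pairs), 6.51, 20.7 and 37.7 CPM at day 2 and 69.2, 123 and 255 CPM at day 6. No 2 days overlapped. It rose by 4.25 ± 0.37 on the log2 scale from day 0 to day 2 (adjusted p = 1.85e-12) and by 2.69 ± 0.30 from day 2 to day 6 (adjusted p = 1.05e-09), a step that was made after dexamethasone had been withdrawn. The summed adipocyte markers rose over the same steps, and their part in this result was not tested.

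The start of *Hsd11b1* differed between the clones and its order turned. At day 0 clone 48 had a median of 1.46 CPM (0.727 to 2.75) and clone 66 of 0.421 CPM (0.0863 to 0.611). At day 2 the medians were 10.8 CPM (6.51 to 15.5) and 29.4 CPM (25.9 to 37.7). Clone 66 was thus lower at day 0 (log2 fold change −2.08 ± 0.37, adjusted p = 8.53e-05) and higher at day 2 (1.51 ± 0.24, adjusted p = 1.48e-05), without overlap on either day. The rise from day 0 to day 2 was larger in clone 66 by 3.58 ± 0.44 on the log2 scale (adjusted p = 1.94e-06).

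Other genes of glucocorticoid turnover and of receptor folding changed less. *H6pd*, which supplies the cofactor of the *Hsd11b1* enzyme, was higher at day 2 than at day 0 (log2 fold change 0.47, adjusted p = 0.000166), *Srd5a1*, a steroid 5-alpha-reductase, was lower (−0.93, adjusted p = 6.89e-11) and *Hsd11b2*, which inactivates glucocorticoid, did not pass (0.08, adjusted p = 0.787). Of 8 receptor genes and chaperones 4 rose and 1 fell between these days, where 35.8% of all genes tested were higher and 37.5% lower. The co-chaperone *Fkbp4*, which helps the receptor towards the nucleus and competes with the *Fkbp5* protein, rose by 1.11 on the log2 scale, and *Bag1* by 0.92. The mineralocorticoid receptor gene *Nr3c2* fell by 2.13 on the log2 scale (adjusted p = 3.51e-11). In the next step, to day 6, 4 of these 8 fell, among them *Fkbp4* (−0.71), and none rose.

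*Fkbp5* (chr17:28399094-28517527, minus strand) encodes a co-chaperone that holds the receptor in a state of low affinity for hormone and is a classical sensor of receptor activity. The 12 libraries had 23.7, 36.8 and 51.7 CPM (lowest, median and highest) at day 0, 420, 613 and 958 CPM at day 2 and 32.8, 38.8 and 45.5 CPM at day 6. Every library at day 2 stood above every library of the other days, and the values at day 6 lay within the range at day 0. On the log2 scale the change was 4.14 ± 0.12 from day 0 to day 2 (adjusted p = 8.95e-26) and −3.99 ± 0.12 from day 2 to day 6 (adjusted p = 7.48e-25). Between day 0 and day 6 it was 0.14 ± 0.10 (adjusted p = 0.234), with a 95% interval of −0.06 to 0.35. In clone 48 fitted alone it was 0.35 ± 0.13 (adjusted p = 0.0241) and in clone 66 −0.05 ± 0.12 (adjusted p = 0.719).

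*Tsc22d3* (chrX:140539528-140600659, minus strand), which encodes the glucocorticoid-induced leucine zipper protein GILZ, followed the same course but did not return as far. Its lowest, median and highest levels were 17.6, 23.3 and 36.5 CPM at day 0, 165, 212 and 280 CPM at day 2 and 30.2, 46.7 and 56.5 CPM at day 6. Day 2 overlapped with neither other day, and days 0 and 6 overlapped only where the clones were pooled. Up to day 2 the log2 fold change was 3.21 ± 0.11 (adjusted p = 7.22e-24), and from there to day 6 it was −2.28 ± 0.10 (adjusted p = 1.07e-19). At day 6 the gene was still above day 0 by 0.93 ± 0.10 (adjusted p = 4.16e-10), in each clone without overlap of the 6 and 6 libraries.

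*Per1* (chr11:69095217-69109960, plus strand) encodes a repressor of the circadian clock that glucocorticoids also raise directly. It had 5.16, 7.17 and 11.5 CPM (lowest, median and highest) at day 0, 12.3, 16.6 and 34.0 CPM at day 2 and 6.78, 9.82 and 20.7 CPM at day 6. Days 0 and 2 did not overlap, whereas day 6 overlapped with both. The log2 fold change was 1.46 ± 0.20 from day 0 to day 2 (adjusted p = 6.61e-08) and −0.69 ± 0.20 from day 2 to day 6 (adjusted p = 0.00266). In the clones fitted alone this fall did not pass (−0.70, adjusted p = 0.0696 in clone 48, and −0.65, adjusted p = 0.0549 in clone 66). These fits had no term for the replicate number. Between libraries of the same clone, genotype and replicate number, *Per1* was lower at day 6 than at day 2 in every case.

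The replicates of *Per1* were far apart at days 2 and 6. Replicate 3 had the highest CPM in all 8 groups of clone, genotype and day at days 2 and 6, and the same held for *Zbtb16*. Replicates 3 of these days also had more ribosomal RNA, with 1.16% to 8.0% of counts (median 3.33%) against 0.116% to 4.94% (median 0.256%) in replicates 1 and 2. Without the 7 libraries named above, *Per1* no longer differed between day 6 and day 0 at the threshold (log2 fold change 0.34, adjusted p = 0.159, against 0.77 and 0.00101 with all libraries). The part of the ribosomal RNA share in these values was not tested.

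Of 9 other clock genes 3 were higher and 4 lower at day 2 than at day 0, with a median log2 fold change of −0.19, which is near the 35.8% and 37.5% of all genes tested. *Dbp*, an output gene of the clock, fell by 1.92 on the log2 scale, *Tef* fell by 0.88, and *Cry1*, which encodes a partner of the *Per1* protein, rose by 1.25. By day 6, 5 of the 9 were higher than at day 2 and 1 was lower, with *Dbp* at 2.27.

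*Klf9* (chr19:23141226-23168134, plus strand) encodes a Krüppel-like transcription factor. Its libraries had 23.3, 35.8 and 63.1 CPM (lowest, median and highest) at day 0, 85.0, 123 and 163 CPM at day 2 and 97.4, 110 and 148 CPM at day 6. Days 2 and 6 each stood clear of day 0 and overlapped with each other. Up to day 2 *Klf9* rose by 1.72 ± 0.13 on the log2 scale (adjusted p = 5.19e-14), and from day 2 to day 6 the log2 fold change was −0.07 ± 0.13 (adjusted p = 0.645), with a 95% interval of −0.32 to 0.17. It thus differed from *Fkbp5* in that 4 days without dexamethasone left its level above day 0 by 1.65 ± 0.13 (adjusted p = 1.66e-13).

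*Zbtb16* (chr9:48654297-48836222, minus strand), which encodes the zinc finger repressor PLZF, was at the limit of detection at day 0. In all 12 libraries of that day 1 read pair was counted, in the S22A library of clone 48, replicate 3, and the other 11 libraries had 0. At day 2 the 12 libraries held 216 read pairs (4 to 46 per library; 0.253, 0.846 and 2.36 CPM as lowest, median and highest) and at day 6 they held 504 (13 to 70; 0.733, 2.42 and 4.0 CPM). Every library of the later days was thus above every library of day 0. The rate was 251 times that of day 0 at day 2, with an exact 95% interval of 44.6 to 9955 that covers counting error only, and 544 times at day 6, with an interval of 97.2 to 21524. In clone 66, where all 6 libraries of day 0 were at 0, it was at least 67.4-fold higher at day 2 and at least 78.2-fold higher at day 6, taking 3 counts over the group as the limit that a count of 0 allows. The fit called both rises (adjusted p = 4.38e-10 and 7.18e-13).

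After day 2 the clones parted in *Zbtb16*. Clone 48 went from a median of 0.503 CPM (0.253 to 0.717) to 2.78 CPM (1.93 to 4.0), without overlap. Clone 66 went from 1.35 CPM (0.975 to 2.36) to 1.75 CPM (0.733 to 2.68), with overlap. Fitted alone, clone 48 gave a log2 fold change of 2.53 ± 0.26 (adjusted p = 1.29e-06) and clone 66 of 0.23 ± 0.32 (adjusted p = 0.588), and the difference between them was −2.28 ± 0.43 (adjusted p = 0.00144).

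*Sgk1* (chr10:21882184-21999903, plus strand) encodes a kinase that is related to AKT, acts in the insulin pathway and is named for its induction by serum and glucocorticoids. Its change at day 2 depended on the clone. In clone 48 its lowest, median and highest levels were 57.8, 63.6 and 86.0 CPM at day 0 and 48.1, 57.3 and 91.8 CPM at day 2. In clone 66 they were 49.8, 74.8 and 90.0 CPM at day 0 and 269, 301 and 463 CPM at day 2. The clones overlapped at day 0, and at day 2 every library of clone 66 was above every library of clone 48. The log2 fold change from day 0 to day 2 was −0.04 ± 0.20 in clone 48 alone (adjusted p = 0.872) and 2.30 ± 0.22 in clone 66 alone (adjusted p = 1.03e-07). The replicates of clone 48 went opposite ways. WT went from 62.4 to 51.6, 57.8 to 48.1 and 68.0 to 88.3 CPM in replicates 1, 2 and 3. S22A went from 86.0 to 56.0, 64.5 to 58.5 and 62.7 to 91.8 CPM. In both clones and genotypes replicate 3 was the highest of its group at day 2 and the lowest at day 6. The difference between the clones was 2.29 ± 0.31 (adjusted p = 8.33e-06). Over both clones together the change was 1.23 ± 0.27 (adjusted p = 0.000117), a value that neither clone showed.

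By day 6 both clones had less *Sgk1* than at any earlier day. Clone 48 had 9.53, 14.8 and 19.7 CPM (lowest, median and highest) and clone 66 had 13.4, 18.6 and 27.1 CPM. All 12 libraries were below all 24 of the earlier days. Against day 0 the log2 fold change was −2.11 ± 0.27 (adjusted p = 1.43e-08), and *Sgk1* was the only one of the 10 genes that ended lower than it began.

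The sequence around annotated starts was read for the members from RefSeq windows of GRCm38.p6 that hold 250 bases before and 50 bases after each start. Of the 10 genes 8 had 1 or more windows, 16 in all. Searched on both strands were the glucocorticoid response element, taken as GNACA and TGTNC with 3 bases between them, the core of the metal response element (TGCNCNC), the cyclic AMP response element (TGACGTCA) and the E-box of clock factors (CACGTG). Of 32851 windows of this length, 0.475% held the first, 51.0% the second, 1.79% the third and 7.15% the fourth. The glucocorticoid response element was found in 1 window each of *Sgk1* and *Mt1*, the cyclic AMP response element in none of the 16, and an E-box in 1 window each of *Fkbp5*, *Per1* and *Sgk1*. A match is only a match of letters, and no match says only that these letters are not in this window.

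The *Sgk1* window with the match, 1 of 6 starts annotated for this gene, is shown because the gene answered so differently in the clones. It lies at chr10:21993640-21993939 (GRCm38.p6, plus strand), with the glucocorticoid response element in capitals, 188 bases before the start.
Sgk1: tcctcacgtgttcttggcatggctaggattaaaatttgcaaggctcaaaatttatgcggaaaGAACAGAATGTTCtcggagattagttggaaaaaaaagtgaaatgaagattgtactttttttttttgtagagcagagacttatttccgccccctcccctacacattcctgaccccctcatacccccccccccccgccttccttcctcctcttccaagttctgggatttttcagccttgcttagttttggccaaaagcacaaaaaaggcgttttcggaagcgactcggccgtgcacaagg

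The metallothionein genes *Mt1* and *Mt2* are neighbours on chromosome 8 (chr8:94179082-94180327 and chr8:94172664-94173568, plus strand) and encode small proteins that bind zinc and copper. Their starts are shown because neighbours of like function took unlike courses. The *Mt1* window is chr8:94178839-94179138 and the *Mt2* window chr8:94172368-94172667 (GRCm38.p6, plus strand). Capitals mark the glucocorticoid response element, 94 bases before the start of *Mt1*, and the metal response element cores on either strand, 3 in the *Mt1* window and 6 in the *Mt2* window.
Mt1: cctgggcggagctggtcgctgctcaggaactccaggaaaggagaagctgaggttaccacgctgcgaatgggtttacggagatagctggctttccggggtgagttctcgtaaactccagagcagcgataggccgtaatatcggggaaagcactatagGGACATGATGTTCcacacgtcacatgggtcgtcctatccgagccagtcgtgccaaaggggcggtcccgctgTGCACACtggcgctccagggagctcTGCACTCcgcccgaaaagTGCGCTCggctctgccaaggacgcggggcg
Mt2: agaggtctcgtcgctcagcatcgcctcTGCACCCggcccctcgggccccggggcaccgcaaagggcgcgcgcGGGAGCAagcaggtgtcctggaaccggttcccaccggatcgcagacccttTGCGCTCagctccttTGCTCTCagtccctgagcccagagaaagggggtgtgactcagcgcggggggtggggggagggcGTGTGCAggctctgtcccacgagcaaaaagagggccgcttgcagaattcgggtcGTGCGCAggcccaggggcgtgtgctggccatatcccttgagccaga

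*Mt2* rose in both clones. Its lowest, median and highest levels were 4.32, 7.57 and 12.9 CPM at day 0, 22.1, 37.5 and 55.9 CPM at day 2 and 12.2, 18.9 and 31.2 CPM at day 6. Day 2 stood clear of day 0. The log2 fold change was 2.29 ± 0.12 from day 0 to day 2 (adjusted p = 1.07e-18) and −0.92 ± 0.11 from day 2 to day 6 (adjusted p = 7.35e-09), which left it above day 0 by 1.37 ± 0.11 (adjusted p = 8.15e-13). *Mt2* shares exonic bases with *Gm45774* on the opposite strand, and since the counting used no strand and left out read pairs on more than 1 gene, pairs on the shared bases are missing from its count.

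*Mt1* was higher at day 2 only in clone 66. Clone 48 had 245, 341 and 488 CPM (lowest, median and highest) at day 0 and 291, 319 and 411 CPM at day 2. Clone 66 had 362, 477 and 527 CPM at day 0 and 680, 813 and 870 CPM at day 2. The days overlapped in clone 48 and not in clone 66. The log2 fold change was −0.03 ± 0.14 in clone 48 alone (adjusted p = 0.872) and 0.84 ± 0.13 in clone 66 alone (adjusted p = 1.85e-05), a difference of 0.83 ± 0.19 (adjusted p = 0.00577). Between day 2 and day 6 *Mt1* fell in clone 66 (−0.67 ± 0.13, adjusted p = 0.000285) and gave 0.31 ± 0.14 in clone 48 (adjusted p = 0.0832). Over both clones the rise to day 2 was 0.43 ± 0.13 (adjusted p = 0.00357), and it was 0.16 (adjusted p = 0.275) with scaling by library size alone.

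Of the zinc genes tested beside them, *Slc30a1*, which exports zinc from the cell, rose by 1.28 on the log2 scale between day 0 and day 2 and *Mtf1*, the factor that binds metal response elements, by 0.57. *Slc39a10*, a zinc importer, fell by 0.46 on the log2 scale. *Mt3* and *Mt4* had too few counts to be tested.

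Levels were compared between genes per length, as FPKM (CPM per kilobase of exons), within each clone (mean ± SD, n = 6 libraries). At day 0 *Mt1* led in clone 48 with 276 ± 68.6 FPKM and in clone 66 with 363 ± 55.4, followed by *Nr3c1* with 30.7 ± 3.52 and 49.9 ± 4.11. *Sgk1* (13.6 ± 2.02 and 14.5 ± 3.07) and *Mt2* (9.66 ± 1.47 and 16.7 ± 3.07) came next and lay within each other's spread in clone 66, whereas in clone 48 *Mt2* lay within that of *Klf9* (8.79 ± 2.23). *Klf9*, *Tsc22d3*, *Fkbp5*, *Per1*, *Hsd11b1* and *Zbtb16* closed the order in both clones. At day 2 *Mt1* led again, and *Fkbp5* (50.5 ± 4.59 FPKM), *Tsc22d3* (49.5 ± 6.71) and *Mt2* (42.7 ± 5.64) lay within each other's spread in clone 48, above *Nr3c1* (30.0 ± 2.97) and *Sgk1* (13.4 ± 3.92). In clone 66 it was *Mt2* (88.5 ± 7.56), *Fkbp5* (87.5 ± 11.2) and *Sgk1* (70.1 ± 18.8) that lay within each other's spread, while *Nr3c1* (52.9 ± 2.20) and *Tsc22d3* overlapped with *Sgk1* and lay below *Mt2* and *Fkbp5*. At day 6 *Mt1* and *Nr3c1* again had the highest means. *Hsd11b1* had reached 20.7 ± 3.85 FPKM in clone 48, within the spread of *Klf9* (22.4 ± 1.52). In clone 66 it had reached 40.2 ± 12.1, within the spread of *Mt2* (37.9 ± 9.13), and both overlapped with *Nr3c1* (54.4 ± 9.56). *Zbtb16* stayed lowest, at 0.543 ± 0.143 and 0.334 ± 0.144 FPKM.

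**Figure D2:**
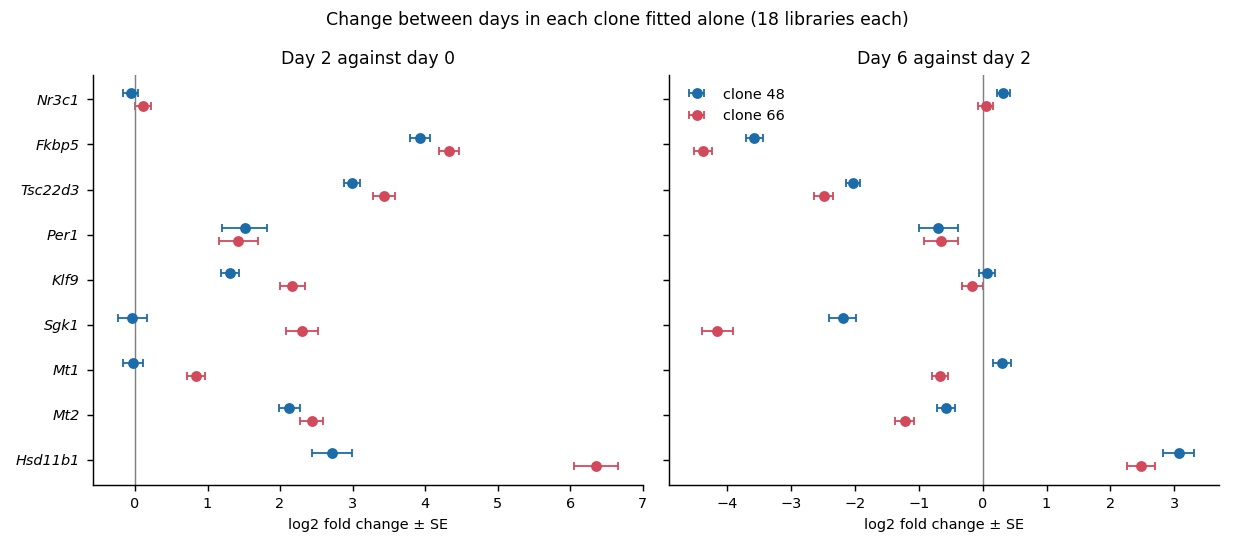
Log2 fold change ± SE of 9 glucocorticoid response genes (*Zbtb16* is left out, since its day 0 counts were near 0) from day 0 to day 2 and from day 2 to day 6, in each clone fitted alone with 18 libraries. *Sgk1* and *Mt1* lie at 0 in clone 48 and above 0 in clone 66 at the first step, whereas *Fkbp5*, *Tsc22d3* and *Per1* lie on the same side of 0 in both clones at both steps.

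At day 2 clone 66 had the higher level of most of these genes. It was above clone 48 in 8 of the 10 (*Nr3c1*, *Fkbp5*, *Zbtb16*, *Klf9*, *Sgk1*, *Mt1*, *Mt2* and *Hsd11b1*) and below it in none, where 30.0% of all genes tested differed between the clones. Of all genes tested 2418 were higher and 2593 lower in clone 66. *Fkbp5* had a median of 473 CPM (420 to 534) in clone 48 and of 850 CPM (691 to 958) in clone 66, without overlap, and a log2 fold change of 0.79 ± 0.12 (adjusted p = 5.95e-06). *Tsc22d3* (0.01 ± 0.13, adjusted p = 0.956) and *Per1* (0.26 ± 0.30, adjusted p = 0.560) did not pass. At day 0, 4 of the 10 were higher and 2 lower in clone 66, where 23.7% of all genes differed (2105 higher, 1851 lower). At day 6, 3 of the 10 were higher and 1 was lower, where 26.2% of all genes differed (2243 higher, 2139 lower). Without the 7 libraries *Fkbp5* and *Mt1* at day 0 no longer passed. At day 6 that fit kept only replicate 1 of each genotype of clone 66. There it gave log2 fold changes of 0.26 for *Nr3c1*, −0.14 for *Tsc22d3* and −1.50 for *Zbtb16*. *Fkbp5* at day 6 had medians of 38.8 and 39.4 CPM in clones 48 and 66, with overlap.

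The difference between the clones in the change itself was tested as well. From day 0 to day 2 it passed for 4 of the 10 genes, *Klf9*, *Sgk1*, *Mt1* and *Hsd11b1*, each with the larger rise in clone 66, where 6.84% of all genes passed. Of all genes 604 passed with a positive difference (clone 66 minus clone 48) and 540 with a negative one. *Klf9* rose by 1.30 ± 0.12 on the log2 scale in clone 48 and by 2.17 ± 0.17 in clone 66, a difference of 0.82 ± 0.21 (adjusted p = 0.0135). From day 2 to day 6 it passed for *Fkbp5* (−0.78 ± 0.17, adjusted p = 0.00315), *Zbtb16*, *Sgk1* (−1.94 ± 0.31, adjusted p = 0.000119) and *Mt1* (−0.95 ± 0.19, adjusted p = 0.00167), where 6.18% of all genes passed. Each of these 4 fell more, or rose less, in clone 66. Of all genes 526 passed with a positive difference at this step and 507 with a negative one. Without the 7 libraries named above, *Klf9* no longer passed at the first step (0.66, adjusted p = 0.0611). At the second step that fit gave −0.70 for *Fkbp5* and −0.68 for *Mt1*, with only replicate 1 of each genotype of clone 66 left at day 6. For *Zbtb16* no difference from day 0 was estimated between clones, since clone 66 had 0 counts then.

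The study's own question was whether the S22A receptor changes gene expression, and it was asked here of the glucocorticoid response genes. None of the 10 genes differed between S22A and WT libraries at day 0, day 2 or day 6 (edgeR quasi-likelihood test), where 0% of all genes tested passed on each day. At an unadjusted p under 0.05 there were 139, 162 and 125 genes of 16723 on the 3 days and none of the 10, whose smallest unadjusted p was 0.279, 0.436 and 0.314. These counts are 0.831%, 0.969% and 0.747% of the genes, fewer than that threshold gives when nothing differs. The p-values of this fit are thus too large, and the absence of small ones is weak evidence. DESeq2 called none of the 10 either. Same-numbered WT and S22A libraries of a clone and day deviated together, and a fit with a term for each of these 18 pairs, added after this had been seen, gave 704, 692 and 477 genes at an unadjusted p under 0.05. One of them at day 6 was *Mt2*, with a log2 fold change of −0.17 ± 0.08 (unadjusted p = 0.0398, adjusted p = 1), and none of the 10 passed after adjustment in that fit on any day. The difference between genotypes in the change over time passed for none of the 10 from day 0 to day 2 or from day 2 to day 6, where again 0% of all genes passed.

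In *Fkbp5* the WT libraries had a median of 623 CPM and the S22A libraries of 605 CPM at day 2, 6 against 6. Its log2 fold change was −0.07 ± 0.15, with a 95% interval of −0.35 to 0.22. In the fit with pairs the interval was −0.17 to 0.04, and a change within these narrower bounds remains possible. *Tsc22d3* had medians of 216 and 212 CPM and a log2 fold change of −0.08 ± 0.14 (−0.35 to 0.19, with pairs −0.22 to 0.10). *Hsd11b1* at day 6 had 115 CPM in WT and 123 CPM in S22A libraries as medians, with −0.11 ± 0.39 (−0.88 to 0.65, with pairs −0.30 to 0.08). Leaving out *Zbtb16*, the estimates of the other 9 genes lay between −0.33 and 0.20 at day 0, between −0.14 and 0.11 at day 2 and between −0.16 and 0.12 at day 6.

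**Figure D3:**
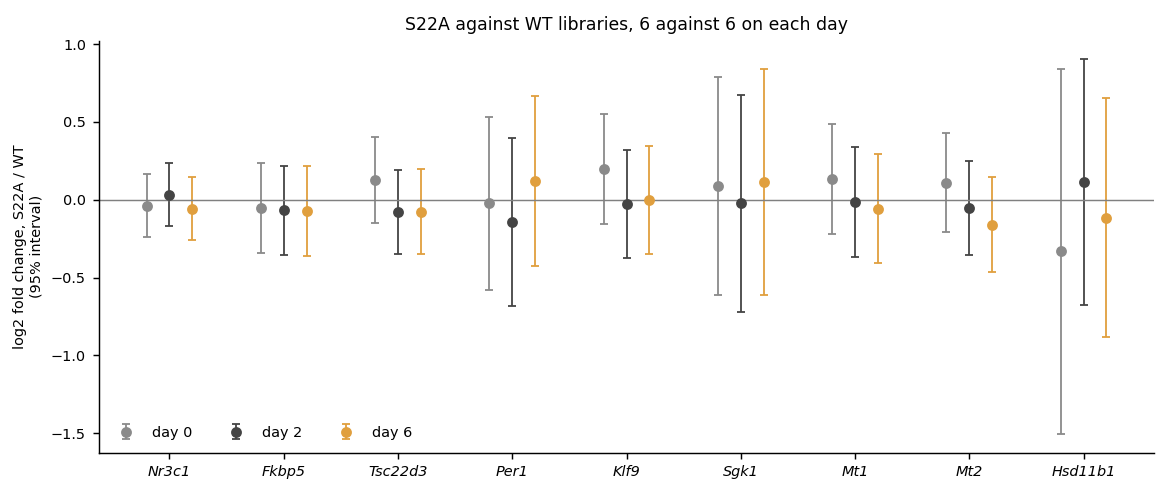
Log2 fold change of S22A against WT, with 95% intervals, for 9 glucocorticoid response genes at day 0, 2 and 6, 6 against 6 libraries on each day (*Zbtb16*, with few counts, is left out). Every interval includes 0, and the widest is that of *Hsd11b1* at day 0, where 2 to 54 read pairs were counted per library.

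Of 20 other genes that glucocorticoids are known to raise 17 were tested, of which 15 rose from day 0 to day 2, 1 fell and 1 (*Dusp1*) did not pass, where 35.8% of all genes rose and 37.5% fell, with a median log2 fold change of 2.40, and *Fam107a*, *Cdkn1c* and *Tat* had too few counts. *Glul*, which encodes glutamine synthetase, went from 11 to 6106 read pairs over the 12 libraries of a day (log2 fold change 9.21 ± 0.23) and *Rgs2*, a regulator of G protein signalling, from 7 to 1064 (7.19 ± 0.34). *Pck1*, the cytosolic phosphoenolpyruvate carboxykinase that fat cells use in glyceroneogenesis, had 0 read pairs in all 12 libraries of day 0 and 125 in those of day 2, and was at least 48.4-fold higher with 3 counts over the day 0 libraries as the limit that a count of 0 allows. The median of the list was 2.40 also with *Pck1* at this bound. *Anxa1*, which encodes the anti-inflammatory protein annexin A1, fell by 3.17 on the log2 scale. Several of these genes, *Pck1* and *Glul* among them, are also raised in adipocyte differentiation, and the part of differentiation in their change was not tested.

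After dexamethasone had been withdrawn, from day 2 to day 6, 7 of the 17 rose and 8 fell, with a median log2 fold change of −0.03, where 31.9% of all genes tested rose and 30.1% fell. *Klf15*, a Krüppel-like factor, and *Pck1* rose further, by 5.62 and 5.29 on the log2 scale, and *Cebpd*, an early adipogenic factor, fell by 2.77. *Errfi1* (−1.11), *Nfkbia* (−0.996) and *Angptl4* (−2.27) fell with *Fkbp5*.

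Inflammatory genes that glucocorticoids are known to lower were lower at day 2. Of 13 such genes 8 were tested and 7 fell, where 37.5% of all genes tested were lower and 35.8% higher. The median log2 fold change of the 8 was −3.33, while *Il6* did not pass (0.08, adjusted p = 0.801). Log2 fold changes were −5.51 and −4.50 for the chemokine genes *Ccl2* and *Ccl7* and −3.73 for the collagenase gene *Mmp13*. From day 2 to day 6, 2 of the 8 rose and 3 fell, which is near the 31.9% and 30.1% of all genes tested. *Ccl2* gave −0.38 (adjusted p = 0.140) at this step. *Mmp3*, *Nos2*, *Tnf*, *Csf2* and *Lif* had too few counts to be tested. Indomethacin was in the same medium, and its part was not tested.

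The phosphodiesterase inhibitor of the cocktail acts through cyclic AMP, and genes that respond to cyclic AMP were read beside the glucocorticoid genes. Of 7 tested 5 rose and 1 fell from day 0 to day 2, and 1 rose and 4 fell from day 2 to day 6, beside 35.8% higher and 37.5% lower, then 31.9% and 30.1%, of all genes tested. *Nr4a3*, an orphan nuclear receptor gene, rose by 2.60 on the log2 scale and *Pde4b*, which encodes a cyclic AMP phosphodiesterase, by 1.31, while *Nr4a1* fell by 1.96 on the log2 scale. *Areg* had too few counts to be tested.

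**Figure D4:**
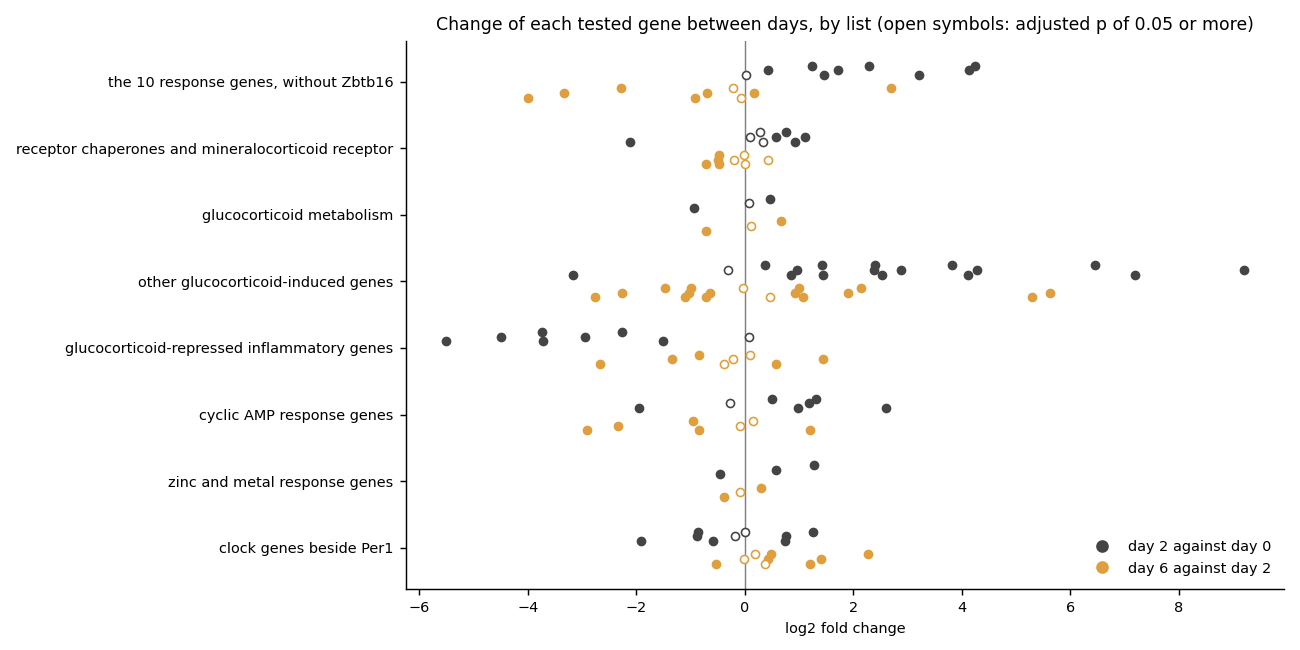
Log2 fold change of each tested gene from day 0 to day 2 (dark) and from day 2 to day 6 (orange), by list, with open symbols for an adjusted p of 0.05 or more (*Pck1*, without counts at day 0, stands at a fitted value that is no estimate of its size at the first step). At day 2 the known glucocorticoid-induced genes lie mostly right of 0 and the inflammatory genes that glucocorticoids lower lie mostly left of it, with *Il6* at 0.08, and at day 6 the induced genes lie on both sides.

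The members were also compared with all genes tested that had a mean log2 CPM of at least 3, by the Pearson correlation of 12 means (clone, genotype and day) on the log2 CPM scale. The points share their libraries and 3 days, so that high values are common, and the 2 nearest of 9381 genes are named, for 9 of the 10 members, only as a description. *Fkbp5* was nearest to *Nxf1* and *Vcan* (r = 0.995 and 0.993) and *Tsc22d3* to *Ociad1* and *Mgst3* (both 0.998). *Klf9* was nearest to *Pex3* and *Klhl7* (0.994 and 0.988), *Mt2* to *Pdcd5* and *Ap3m1* (0.997 and 0.995) and *Hsd11b1* to *Igfbp4* and *Stom* (0.982 and 0.981). *Per1* was nearest to *Tent4b* and *Pigl* (both 0.991), *Zbtb16* to *Carhsp1* and *Abcg1* (0.990 and 0.988), *Nr3c1* to *Onecut2* and *Paip2* (0.986 and 0.975) and *Mt1* to *Ebpl* and *Vps54* (0.958 and 0.957). Among the members themselves *Fkbp5* and *Tsc22d3* had r = 0.943 and *Per1* and *Mt2* r = 0.961, whereas *Nr3c1* and *Fkbp5* had r = 0.0381.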

How the data were processed

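The deposited values are raw gene counts of paired-end reads. Per the labels and the paper, the authors made stranded libraries of total RNA, aligned reads to GRCm38 with STAR 2.7.0d and counted read pairs on GENCODE M21 exons with featureCounts 1.6.2, without strand and without pairs that fall on more than 1 gene or place. No normalization was applied to the counts. Depth per library is given in the report, and for genes with few counts the counting error limits the precision.

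Counts were filtered with filterByExpr and scaled by TMM in edgeR 4.0.16 (R 4.3.3). Log2 fold changes, with SE, came from edgeR's quasi-likelihood test (legacy form). As in the authors' model, each combination of genotype and day had its own coefficient beside a clone term. Adjusted p-values are Benjamini-Hochberg values over all 16723 genes tested, and a gene passed below 0.05. Comparisons of the clones used a coefficient for each clone, genotype and day. The SE is the log2 fold change divided by the square root of the F value. The ratio of counts of *Zbtb16* has an exact binomial interval. Figures and sequence searches were made with matplotlib 3.10.9 and pandas 2.3.3 (python 3.11.15).

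Groups came from the sample labels. The deposited description calls the 3 replicates technical and the paper calls them independent, so the p-values measure the spread between these libraries, which may be technical. Replicates differed by more than sampling noise (chi-square of 12.0 to 188 per degree of freedom), so none was a duplicate. Whether replicate numbers pair libraries was checked by the correlation, over 9381 genes, of deviations from group means. It was 0.176 to 0.930 for WT and S22A libraries of the same clone, day and number (18 pairs), so these were taken as paired. Genotype values nevertheless come from the authors' model without a term for the pairs, unless said to be from the fit with pairs. Between days, for the same clone, genotype and number, its mean was 0.373 for days 0 and 2 (−0.136 to 0.790). It was 0.316 for days 0 and 6 (−0.325 to 0.760) and 0.477 for days 2 and 6 (0.0126 to 0.882). Days were not taken as paired in the main fits, although libraries of days 2 and 6 deviated together. The replicate block, 1 of the alternatives, has a term for clone and replicate number.

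Alternatives were a replicate block, DESeq2 1.42.0, a filter at 1 CPM in 6 or more libraries, no filter, scaling by RLE or by library size alone, the version 4 test of edgeR, each clone alone and each library left out in turn. A block within each day and the omission of 7 libraries were chosen after seeing the data. Simulated data were used to test the scripts. The 10 genes and all lists were chosen with earlier results of these data known, and all 10 are described. Of each other list, the 3 genes with the largest change between days 0 and 2 that passed were named, for the glucocorticoid-induced genes also between days 2 and 6, with the genes not tested. *Anxa1*, *Dusp1*, *Il6*, *Cebpd*, *Errfi1*, *Nfkbia* and *Angptl4* were named after their values had been seen. The same holds for the values of *Fkbp4*, *Dbp* and *Ccl2* at day 6. Promoter sequences are RefSeq windows of GRCm38.p6, the build of the counts, read for 8 of the 10 genes. The genes nearest to *Sgk1* in pattern are not reported here.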

Additional observations from a re-analysis of the deposited data

Results flagged for a closer look

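Values of 3 libraries stood far from the other 5 libraries of their genotype and day by Dixon's criterion, out of 59 groups of 6 libraries in which a gene had any counts, where about 1 group in 20 would be marked by chance. The WT library of clone 66 at day 6, replicate 1, had 642 CPM of *Mt1*, where the next highest had 488 CPM. The WT library of clone 66 at day 0, replicate 3, had 17.6 CPM of *Tsc22d3*, where the next lowest had 22.3 CPM. The S22A library of clone 48 at day 0, replicate 3, had the single read pair of *Zbtb16* seen at day 0, 0.0511 CPM, where the 5 others had none.

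The change between days differed between the clones, by the test of the difference itself, for 4 genes at each step. From day 0 to day 2 the difference of clone 66 minus clone 48 on the log2 scale was 0.82 for *Klf9*, 2.29 for *Sgk1*, 0.83 for *Mt1* and 3.58 for *Hsd11b1*. From day 2 to day 6 it was −0.78 for *Fkbp5*, −2.28 for *Zbtb16*, −1.94 for *Sgk1* and −0.95 for *Mt1*. Clone and library pool cannot be told apart in these values.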

How the results depend on the processing

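Scaling by library size alone moved the median of all genes by −0.26 on the log2 scale from day 0 to day 2, by 0.07 from day 2 to day 6 and by −0.19 from day 0 to day 6. It left 33.6%, 57.7% and 34.9% of the genes that passed on the higher side, against 48.9%, 51.4% and 48.2% with TMM. Log2 fold changes that changed sign under it were those of *Nr3c1* at day 2 against day 0 (−0.23) and at day 6 against day 0 (−0.000226), of *Fkbp5* at day 6 against day 0 (−0.0440), of *Tsc22d3* between the clones at day 2 (−0.0334) and of *Fkbp5* between the clones at day 6 (−0.0473). With the filter of 1 CPM, *Nr3c1* gave −0.00022 at day 2 against day 0. In clone 48 alone the sign changed for *Nr3c1* (−0.0575), *Sgk1* (−0.0403) and *Mt1* (−0.0285) at day 2 against day 0 and for *Klf9* (0.0661) and *Mt1* (0.31) at day 6 against day 2, and in clone 66 alone for *Fkbp5* at day 6 against day 0 (−0.0549).

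Without the 7 libraries of high ribosomal RNA share or lowest total, *Per1* changed sign in the difference between clones from day 2 to day 6 (−0.0143) and *Klf9* between the clones at day 6 (−0.0640), 1 gene that is not a member passed between genotypes at day 0, 669 genes and 2 members passed in the clone difference from day 2 to day 6, and 2663 genes differed between the clones at day 6. With the replicate block 2248 and 2082 genes passed in the clone difference at the 2 steps, against 1144 and 1033. The replicate block changed no call of a member between days or between genotypes. In the clone difference *Fkbp5* also passed with it from day 0 to day 2, and *Tsc22d3* and *Mt2* from day 2 to day 6. Between the clones *Klf9* at day 0 and *Zbtb16* at day 6 also passed with it. With a block within each day, 1 gene that is not a member passed between genotypes at day 2. The causes of these changes, the smaller number of libraries among them, were not tested.

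With each library left out in turn (36 fits), 9 members passed at day 2 against day 0 in every fit, 7 to 8 at day 6 against day 2 and 8 to 9 at day 6 against day 0, and none passed between genotypes. Between the clones at day 6, 2 to 5 members passed, with 2 only without the S22A library of clone 66 at day 6, replicate 2. Changes of sign were seen for *Nr3c1* at day 2 against day 0 (−0.00128 to 0.0916), for *Per1* in the clone difference from day 0 to day 2 (−0.34 to 0.12) and from day 2 to day 6 (−0.17 to 0.39), and between the clones for *Sgk1* at day 0 (−0.00909 to 0.18), *Tsc22d3* at day 2 (−0.0818 to 0.0968) and *Fkbp5* at day 6 (−0.0225 to 0.0676), none of which passed in the fit of all libraries. *Zbtb16* with at most 70 read pairs per library, and *Hsd11b1* at day 0, are limited by counting error.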
